A study of Mus musculus with 8 samples.

Results

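Binding of EBF1 and of Brg1 was examined at 10 mouse genes of cytokine signalling in pro-B cells, measured by chromatin immunoprecipitation with sequencing (ChIP-seq). The genes were the receptors Il7r and Flt3, the kinases Jak1 and Jak2, the transcription factors Stat5a and Stat5b, and the inhibitors Socs1, Socs2, Cish and Sh2b3. A peak was given to a gene when its summit lay in the gene's body on build GRCm38, or outside every protein-coding gene with that gene's end as the nearest within 100 kb. By this rule 24 of the 5757 peaks in the 4 deposited lists belonged to the 10 genes, out of 21887 protein-coding genes on the placed chromosomes. They were 22 of 5206 Brg1 peaks after dTAG-13 and 1 of 234 Brg1 peaks in DMSO, and 0 of 5 EBF1 peaks after dTAG-13 and 1 of 312 EBF1 peaks in DMSO.

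The cells were a mouse pro-B line immortalised with A-MuLV (Abelson murine leukaemia virus), whose own EBF1 had been replaced by an exogenous copy. The copy carries the dTAG degron, which the small molecule dTAG-13 directs to degradation. The EBF1-dTAG_C line, treated for 6 h with 0.5 µM dTAG-13 or kept in DMSO, was used for EBF1. The EBF1-dTAG_N line, under the same conditions, was used for Brg1, and EBF1 itself was not measured there. Chromatin was fixed with 1% formaldehyde for 10 min for EBF1, and with EGS followed by 1% formaldehyde for 15 min for Brg1. The treatment label of the controls gives 6 h of DMSO, and their titles give 0 h. With 1 library in each group, differences between conditions could not be set against replicate error, and none was tested. Whether each line is 1 clone is not given in the sources used here.

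EBF1 is a transcription factor that pro-B cells need to form, and Brg1, encoded by Smarca4, is the ATPase of the BAF complex that moves nucleosomes. Interleukin-7 (IL-7) binds a receptor made of the Il7r chain and the common gamma chain, the attached kinases JAK1 and JAK3 become active, and STAT5 enters the nucleus as a dimer. Among the targets of STAT5 are Socs1, Socs2 and Cish, whose proteins in turn dampen the receptor and kinases. FLT3 is the receptor for Flt3 ligand in early lymphoid progenitors and is silenced as B-lineage cells commit. The Abelson kinase can keep JAK-STAT signalling active without IL-7, and the growth protocol of these cells names no added IL-7 or Flt3 ligand.

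Fragments at a summit are the sequenced fragments stacked at that base, recovered from the authors' enrichment and p-values, and ranks follow those p-values within a list. Distances of a peak to a gene are taken from the summit. The lists differed in background, from which a difference in depth was inferred, since depth itself was not measured here. The lowest local background recovered from the peaks was 2.15 fragments per base in the Brg1 dTAG-13 list and 0.607 in the Brg1 DMSO list, a ratio of 3.54. For EBF1, whose fragments the authors' values scale by 0.818 after dTAG-13 and 0.863 in DMSO, it was 1.65 in the dTAG-13 list and 1.77 in the DMSO list on those scales. Of 10 pro-B marker genes, 8 had a Brg1 peak after dTAG-13 and 5 in DMSO, and 0 had an EBF1 peak after dTAG-13 and 5 in DMSO. None of 6 T-cell, 5 myeloid and 4 erythroid markers had a peak in any of the 4 lists. Over all coding genes the shares were 12.2% for Brg1 after dTAG-13 and 0.818% in DMSO, and 0.0228% for EBF1 after dTAG-13 and 1.28% in DMSO, and 0 of these 15 genes is not far from those shares. These counts describe binding and not expression.

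Promoter windows of 300 bases, from 250 bases before to 50 bases after a start site, were available from RefSeq (GRCm38.p6) for 9 of the 10 genes, all but Socs2. There were 11 such windows, since Stat5a and Stat5b had 2 each. The window of Il7r was the only 1 of the 11 overlapped by a Brg1 peak after dTAG-13, where 1.59% of all 32851 windows were overlapped. The windows of Il7r and Cish are shown because they alone among the 11 held the STAT palindrome TTCNNNGAA, the letters recognised by STAT5 dimers. Capitals mark that palindrome and, in Il7r, the ETS-type word CAGGAAG, which stands here as its reverse complement. Both are written in the direction of transcription, that of Il7r at chr15:9529827-9530126 on the minus strand and that of Cish at chr9:107296409-107296708 on the plus strand.
Il7r: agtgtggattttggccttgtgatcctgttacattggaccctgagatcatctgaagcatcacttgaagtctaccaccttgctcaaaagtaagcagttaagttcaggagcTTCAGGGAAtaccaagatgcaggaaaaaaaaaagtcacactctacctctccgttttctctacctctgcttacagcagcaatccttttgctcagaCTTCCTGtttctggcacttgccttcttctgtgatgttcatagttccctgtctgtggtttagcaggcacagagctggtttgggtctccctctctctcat
Cish: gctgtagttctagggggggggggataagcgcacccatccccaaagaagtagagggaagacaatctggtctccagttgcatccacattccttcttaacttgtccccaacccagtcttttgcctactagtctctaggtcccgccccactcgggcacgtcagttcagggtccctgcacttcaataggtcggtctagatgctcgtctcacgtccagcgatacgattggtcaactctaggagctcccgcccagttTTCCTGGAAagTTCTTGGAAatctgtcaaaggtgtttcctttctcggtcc

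The Brg1 peak at Il7r covered bases 113 to 300 of its window, counted from 1 at the 5′ end, with the summit at base 149. The ETS word, at bases 203 to 209, lay inside the peak, and the STAT palindrome, at bases 109 to 117, lay across its edge. In Cish the palindromes stood at bases 251 to 259 and 262 to 270, and the nearest Brg1 peak edge was 16.1 kb from the window. The STAT palindrome was present in 8.3% of all windows on either strand. The ETS word was present in 6 of the 11, those of Il7r, Jak2, Stat5a and Stat5b, and in 13.3% of all windows. The EBF1 palindrome, TCCC and GGGA with any 2 bases between them, was present in 0 of the 11 and in 0.904% of all windows. These motifs do not overlap in the windows shown, and they were chosen with the sequences in view. A match describes the letters and does not show binding, and no genome sequence of the peaks outside these windows was used here.

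**Figure D1:**
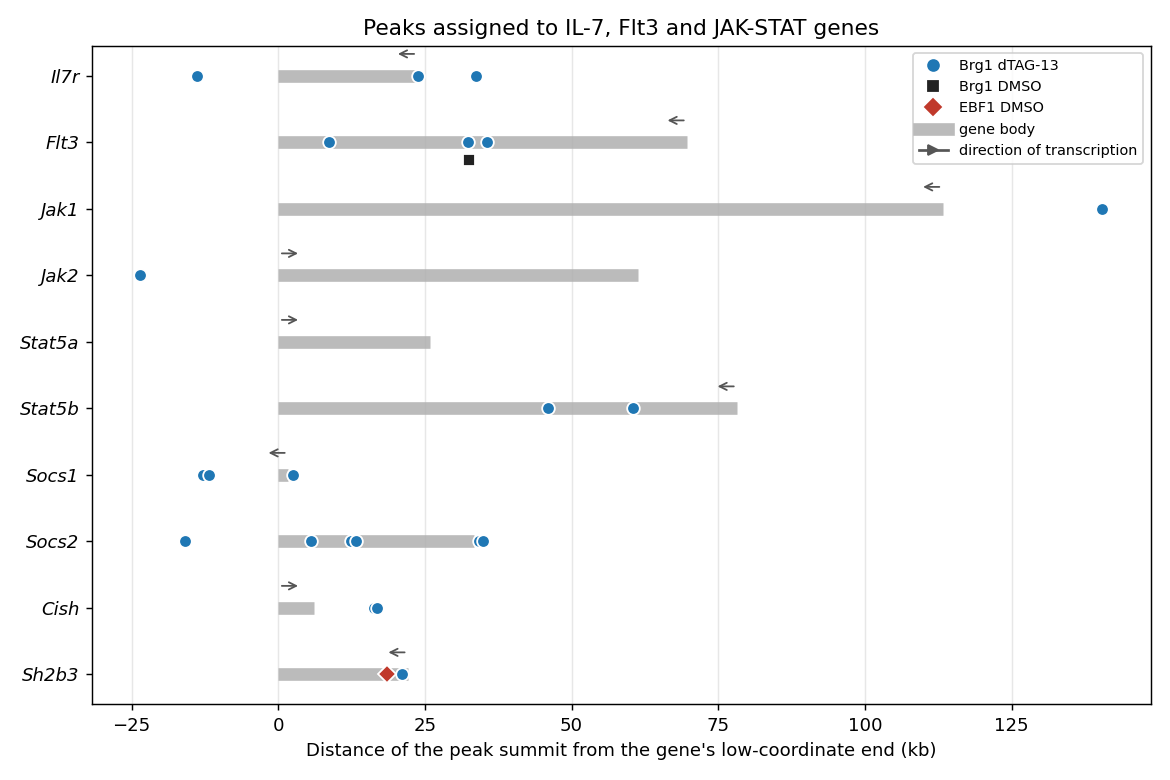
Position of every assigned peak summit (x axis, kb from the low-coordinate end of each gene) for the 10 genes (rows). Grey bars are gene bodies, arrows give the direction of transcription where the promoter table has it, blue circles are the 22 Brg1 peaks after dTAG-13, the black square is the Brg1 DMSO peak in Flt3 and the red diamond is the EBF1 DMSO peak in Sh2b3.

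EBF1 was found at 0 of the 10 genes after dTAG-13 and at 1 of them, Sh2b3, in DMSO. Over all protein-coding genes, 0.0228% had an assigned EBF1 peak after dTAG-13 and 1.28% in DMSO. Sh2b3 encodes LNK, an adaptor that restrains JAK2 and other cytokine-receptor kinases. After dTAG-13 no EBF1 peak was listed in the gene, and of the whole DMSO list 1.6% of peaks were overlapped by a dTAG-13 peak. The EBF1 peak in DMSO lay at chr5:121833872-121834240 inside the gene, with the summit 2078 bp downstream of the start site. The summit held 67 fragments in DMSO, and the authors' enrichment was 14.7-fold. That enrichment rests on the fragments multiplied by 0.863, the scale of this library, over a local background of 3 on the same scale. It ranked 8 of 312 in its list, where the median summit held 26 fragments. The dTAG-13 list held peaks on only 1 chromosome that carries a member, chromosome 19, and that peak was 25020 kb from Jak2.

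The EBF1 site in Sh2b3 overlapped no Brg1 peak after dTAG-13 and none in DMSO. Over all 312 EBF1 sites, 17.9% overlapped a Brg1 peak after dTAG-13 and 14.1% in DMSO. The Brg1 peak nearest to it after dTAG-13 lay at chr5:121836384-121836693, also within the gene. Its summit was at -466 bp from the start site, upstream of it, and 2544 bp from the EBF1 summit, with 2143 bp between the peaks. That peak held 17 fragments and ranked 3180 of 5206. In DMSO the nearest Brg1 summit was 3320 kb from the gene.

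No other member had an EBF1 summit within 100 kb in either condition. In DMSO the nearest EBF1 summits stood 213 kb from Stat5b, 261 kb from Socs1 and 291 kb from Stat5a. For the remaining 6 genes the distance ran between 1540 kb at Flt3 and 10636 kb at Jak2, with Il7r at 2461 kb.

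Brg1 was assigned to 9 of the 10 genes after dTAG-13 and to 1, Flt3, in DMSO. Over all protein-coding genes, 12.2% had a Brg1 peak after dTAG-13 and 0.818% in DMSO. The stretch that counts towards a gene, made of its body and its part of the neighbouring gaps, had a median of 75.6 kb for the 10 genes and 45.7 kb for all genes. Among the 13608 genes whose stretch lay between the shortest and longest of the members (21.7 and 189 kb), 13.7% had a Brg1 peak after dTAG-13 and 0.823% in DMSO. In the same genes EBF1 peaks were found at 0.0294% after dTAG-13 and at 1.4% in DMSO. The members were chosen with earlier results of these data known, so these shares are a description.

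Of the 22 Brg1 peaks after dTAG-13, 12 belonged to the 4 inhibitors, 6 to the receptors, 2 to the kinases and 2 to the STATs. Socs2 had 6, Il7r, Flt3 and Socs1 had 3 each, Stat5b and Cish had 2 each, Jak1, Jak2 and Sh2b3 had 1 each, and Stat5a had 0. At least 2 peaks were found at 6 of the 10 genes, against 4.53% of all genes, and at least 3 at 4 of the 10, against 2.26%. At least 6 peaks, as at Socs2, were found at 0.397% of all genes. These shares are not matched for the length of the stretch that counts towards a gene. The summits lay inside a gene body in 9 of 22 cases (40.9%, against 52.1% of the whole list) and outside but within 1 kb of a gene end in 3 of 22 (13.6%, against 5.86%). The other 10 summits lay between 1.52 and 27.2 kb from the gene they were given to.

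Il7r encodes the alpha chain of the IL-7 receptor, and the summits of all 3 of its Brg1 peaks after dTAG-13 lay outside the annotated body. The peak over the promoter, chr15:9529727-9530014, reached across the 5′ end of the body at 9529941 and had its summit 37 bp beyond the gene's end, at -102 bp from the start site of the window shown above. It held 17 fragments over a local background of 5.86, the highest background among the 22 and 2.73 times the lowest of its list, with an enrichment of 2.62-fold by the authors' value. With rank 5186 of 5206 it stood at the bottom of its list. A peak 9.87 kb beyond the 5′ end, chr15:9539628-9539948, held 15 fragments at rank 2243. The third, chr15:9492120-9492621, lay 13.9 kb beyond the 3′ end with 19 fragments at rank 1884. In DMSO no Brg1 peak was listed at Il7r, and the nearest summit was 25246 kb away.

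Flt3 encodes the receptor tyrosine kinase for Flt3 ligand and was the only one of the 10 genes with Brg1 in both conditions. After dTAG-13 a peak at chr5:147362874-147363289 held 15 fragments over a local background of 2.51, and in DMSO a peak at chr5:147363156-147363367 held 13 fragments over 0.966. The authors' enrichment was 4.56-fold after dTAG-13 and 7.12-fold in DMSO, each against the background of its own library and so not comparable in size. The intervals shared 134 bp, which is 32.2% of the dTAG-13 peak and 63.2% of the DMSO peak, and the summits were 143 bp apart. The site lies inside the gene, with the summit 37375 bp downstream of the start site after dTAG-13 and 37232 bp in DMSO. Within their lists it ranked 2956 of 5206 after dTAG-13 and 107 of 234 in DMSO.

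After dTAG-13 a further Brg1 peak, chr5:147366175-147366389, lay 3171 bp from that site within Flt3 with 16 fragments at its summit. Another, chr5:147339203-147339500, lay in the 3′ part of the gene with 14 fragments. Neither was in the DMSO list, whose nearest summit was the one inside Flt3 itself, at 3028 and 23920 bp. The promoter window of Flt3 was 29.1 kb from the nearest Brg1 peak.

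Jak1 encodes a kinase bound to the IL-7 receptor chain, and Jak2 encodes the kinase used by the erythropoietin and related cytokine receptors. Both had 1 Brg1 peak after dTAG-13, upstream of the gene, and 0 in DMSO. The Jak1 peak, chr4:101292238-101292504, lay 27.2 kb from the gene in the long non-coding gene Gm12796, with 16 fragments over a local background of 4.19. The Jak2 peak, chr19:29228173-29228408, lay 23.5 kb from the gene with 12 fragments over 2.15, the fewest among the 22. They stood low in the list, at ranks 4744 and 4294 of 5206, and within 20 kb neither gene had a peak.

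Stat5a and Stat5b encode the STAT5 proteins that carry the IL-7 signal to the nucleus and lie next to each other on chromosome 11. Stat5b had 2 Brg1 peaks in its body after dTAG-13 and 0 in DMSO. They were chr11:100826602-100826949 with 15 fragments at rank 2823 and chr11:100840984-100841297 with 13 fragments at rank 4504. Stat5a had 0 in either condition, and the second Stat5b peak was 18.1 kb from it. Since the rule gives a summit inside a body to that gene alone, the 2 peaks count for Stat5b only. Over the 10 genes, a Brg1 summit within 100 kb was given to another gene 15 times, these 2 included.

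Socs1 encodes an inhibitor that binds JAK kinases directly, and it had 3 Brg1 peaks after dTAG-13 and 0 in DMSO. The peak chr16:10785838-10786439 began 52 bp upstream of the promoter window and had its summit 771 bp upstream of the start site, with 19 fragments over a local background of 2.92. Tnp2, a sperm nuclear protein gene, was the next nearest coding gene at 1628 bp from that summit. The other peaks lay 12.8 and 11.7 kb beyond the 3′ end, at chr16:10770849-10771166 with 22 fragments and chr16:10771913-10772251 with 18 fragments. In the list they ranked 518 and 1536, and the promoter-side peak ranked 1438 of 5206.

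Socs2 encodes an inhibitor best known for restraining growth hormone signalling in mice, and its 6 Brg1 peaks after dTAG-13 were the most among the 10 genes, where DMSO had 0. The highest, chr10:95367850-95368336, lay 15.9 kb from the gene with 27 fragments over a local background of 2.75, an enrichment of 7.48-fold by the authors' value, at rank 183. Next came a peak of 1059 bp in the gene body, chr10:95396972-95398030, the widest of the 22, with 24 fragments at rank 352. A peak 334 bp from it, chr10:95395918-95396637, held 17 fragments, and the third in the body, chr10:95389541-95389765, held 15. These last stood lower in the list, at ranks 3323 and 4555.

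The remaining Socs2 peaks, chr10:95417682-95418118 and chr10:95418544-95418901, lay 757 and 1522 bp beyond the gene's high-coordinate end. Both summits were inside the long non-coding gene 5730420D15Rik, and they held 18 and 16 fragments. A further 6 Brg1 summits within 100 kb of Socs2 were assigned to its neighbour Cradd, 5 of them inside Cradd.

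Cish encodes CIS, an inhibitor that competes with STAT5 at activated receptors. After dTAG-13 it had 2 Brg1 peaks on its 3′ side, 118 bp apart, and in DMSO it had 0. They were chr9:107312843-107313075, 10.2 kb from the gene with 15 fragments, and chr9:107313194-107313770, 10.7 kb from it with 17 fragments. Hemk1 was the next nearest coding gene, 14064 and 13617 bp from these summits. The ranks were 2275 and 1784 of 5206.

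**Figure D2:**
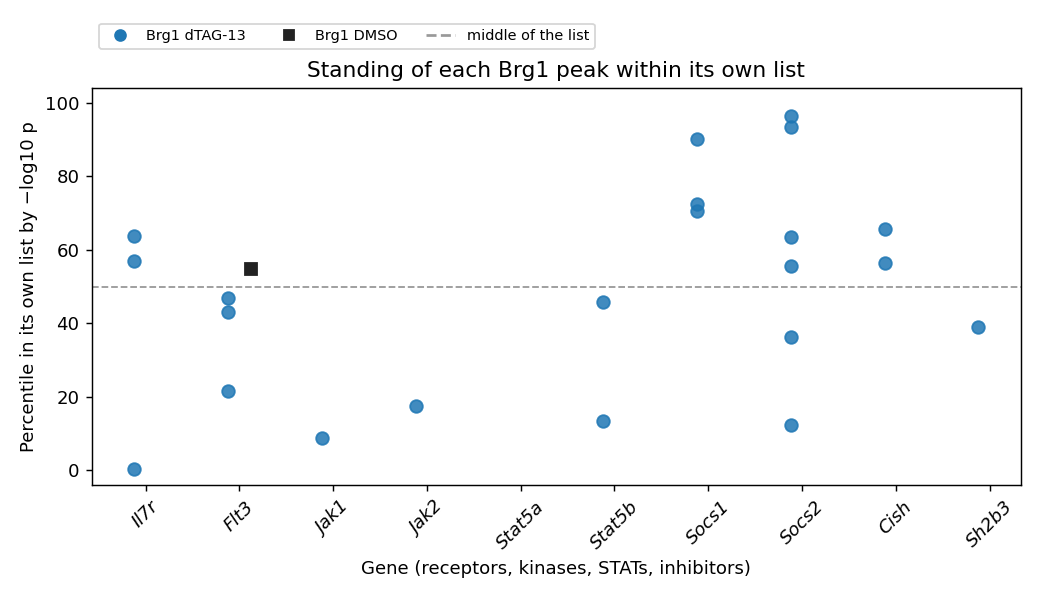
Percentile of each Brg1 peak (y axis) by −log10 p within its own list, by gene (x axis), with blue circles for dTAG-13, a black square for DMSO and a dashed line at the middle of the list. The Socs1 and Cish peaks lie above the line, those of Jak1, Jak2, Stat5b and Sh2b3 below it, and the Socs2 peaks run between 12.5 and 96.5.

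As a group the 22 peaks stood near the middle of the dTAG-13 list, with a median percentile of 51.2 and a range of 0.403 to 96.5. Their median summit held 16.5 fragments (12 to 27), against 18 in the whole list, and their median width was 330 bp, against 323 bp. By role, 9 of the 12 inhibitor peaks lay above the middle of the list, and so did 2 of the 6 receptor peaks, 0 of the 2 kinase peaks and 0 of the 2 STAT peaks. Peaks at the same gene are not independent. Socs2 alone had 6 of the 12 inhibitor peaks, and the 1 peak at Sh2b3 lay below the middle, at percentile 38.9. The 3 peaks in the top 10% of the list belonged to Socs1 and Socs2. At a −log10 q of at least 10 there were 2 peaks, both at Socs2, where 7.89% of the whole list passed. At a −log10 q of at least 5 there were 8, at Il7r, Socs1, Socs2 and Cish, where 42.5% of the whole list passed.

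Of the 22 Brg1 peaks after dTAG-13, the one in Flt3 overlapped a DMSO peak (4.55%, exact Clopper-Pearson 95% interval 0.115 to 22.8%), against 2.42% of the whole list. The interval treats the 22 peaks as independent, though several stood at the same gene, and it does not cover variation between libraries. In the other direction, the 1 member peak of the DMSO list was found again, against 54.3% of that list. Scaled down by 3.54 to the DMSO background, the 22 summits would hold 3.39 to 7.63 fragments, and the DMSO list reached down to 8. The DMSO list had no −log10 p under 5.89, and the scaled values reached this at 1 peak, the Socs2 peak of rank 183, against 5.07% of the whole list. Its scaled −log10 p of 6.46 was worked out at the fractional count of 7.63, whereas the summits of the DMSO list hold whole counts. The site in Flt3 would hold 4.24 fragments on this scale, where the DMSO library held 13 at its own summit, 143 bp away. The DMSO value is that of a peak called in that 1 library, and a difference between the conditions was not tested. For the 21 peaks with no overlapping DMSO peak, a gain of Brg1 and a greater depth of the dTAG-13 library, inferred from its background, cannot be told apart.

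**Figure D3:**
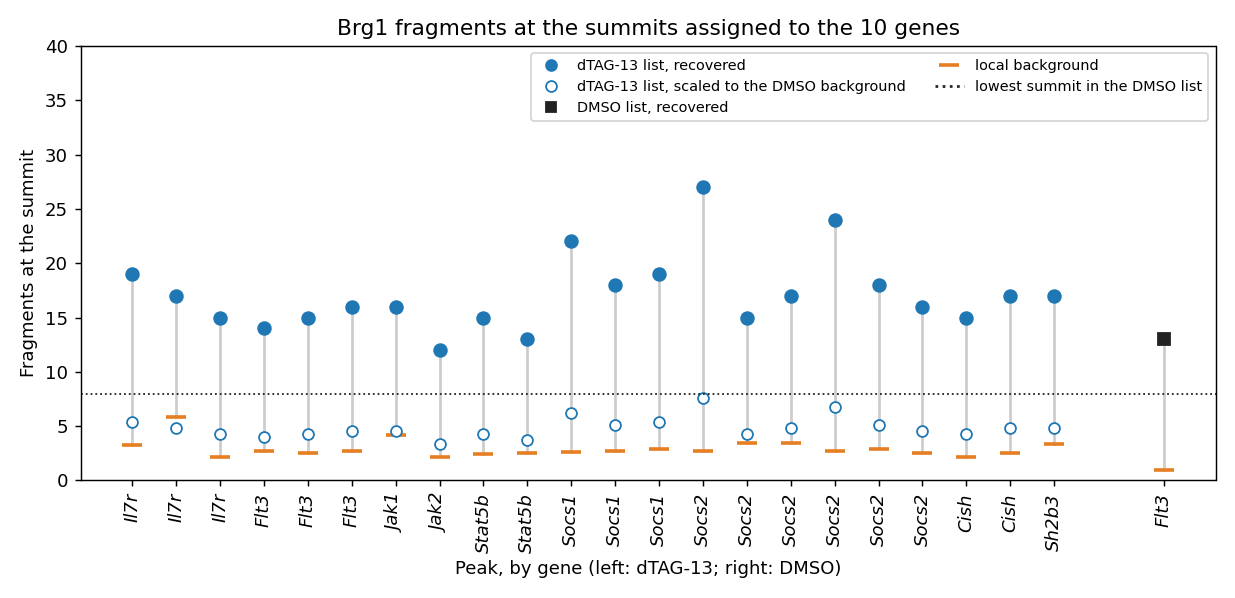
Fragments at each Brg1 summit (y axis) for the 22 dTAG-13 peaks on the left and the DMSO peak on the right, labelled by gene. Filled symbols are recovered fragments, orange bars the unscaled local background, open circles the dTAG-13 fragments scaled to the DMSO background, all below the dotted line at 8, the lowest summit of the DMSO list.

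Other genes of the pathway were counted in 5 lists of 68 genes. A Brg1 peak was assigned to 31 of them after dTAG-13 and to 6 in DMSO, and an EBF1 peak to 0 after dTAG-13 and to 3 in DMSO. After dTAG-13 and in DMSO, Brg1 was found at 1 and 1 of 9 ligand genes, 4 and 1 of 13 receptor genes, and 3 and 0 of 7 further JAK and STAT genes. It was found at 7 and 2 of 17 further negative regulators and at 16 and 2 of 22 downstream genes. Over all coding genes, the Brg1 shares are the 12.2% and 0.818% given above. The EBF1 shares there are 0.0228% after dTAG-13 and 1.28% in DMSO. None of these shares is matched for the length of the stretch that counts towards a gene. The 5 lists were chosen with earlier results of these data known, so the counts are a description.

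Among negative regulators, the genes with Brg1 in DMSO were Socs3, an inhibitor of gp130 receptors (9 fragments, 19.4 kb from the gene), and Ptpn6, the phosphatase SHP-1 (12 fragments, in the gene). The others were Csf1, the macrophage growth factor (9 fragments, 55.7 kb), Il2ra, the IL-2 receptor alpha chain (11 fragments, 6.28 kb), Pim1, a survival kinase induced by STAT5 (11 fragments, 4.71 kb), and Foxo1 (13 fragments, 93.9 kb). Each of these peaks except that of Csf1 was overlapped by a Brg1 peak after dTAG-13, against 54.3% of the whole DMSO list. EBF1 in DMSO was found in Bcl2l1, the gene of the survival protein BCL-XL (23 fragments), in Pik3cd, a catalytic subunit of phosphoinositide 3-kinase (30 fragments), and 93.8 kb from Foxo1, a factor that activates Il7r (25 fragments). The EBF1 site near Foxo1 overlapped Brg1 in both conditions, that in Bcl2l1 after dTAG-13 only, and that in Pik3cd in neither, as at Sh2b3. Over all 312 EBF1 sites, the shares with a Brg1 peak were 17.9% after dTAG-13 and 14.1% in DMSO.

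**Figure D4:**
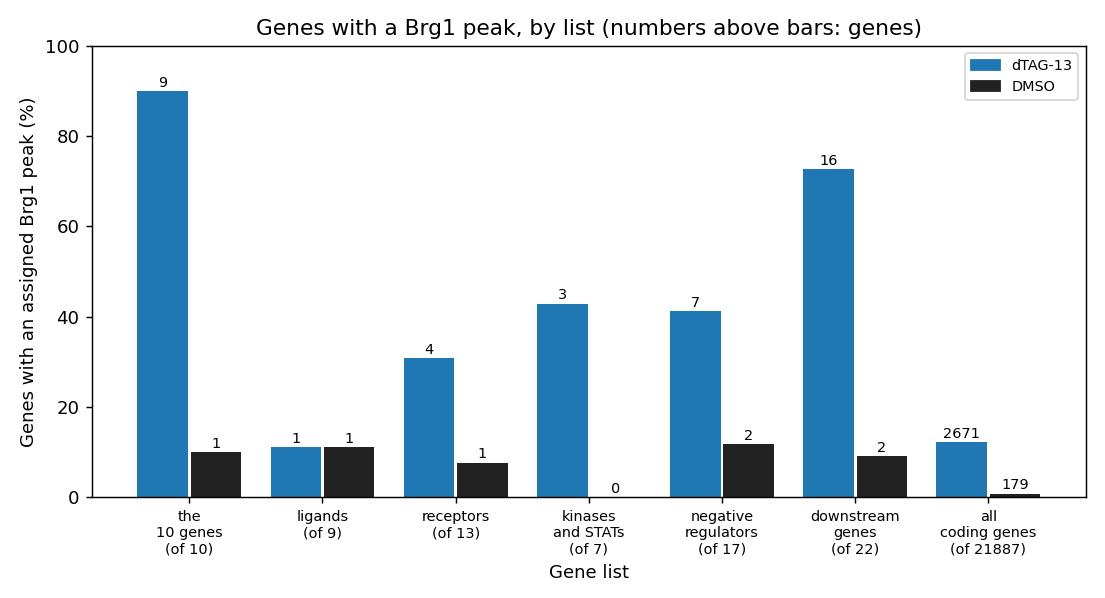
Share of genes with an assigned Brg1 peak (y axis, %) in the 10 genes, the 5 lists of other pathway genes and all protein-coding genes (x axis), with blue bars for dTAG-13, black bars for DMSO and gene numbers above the bars. The 10 genes stand at 9 after dTAG-13 and 1 in DMSO, and all coding genes at 2671 and 179.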

How the data were processed

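ChIP-seq of EBF1 and Brg1 gave 4 deposited peak lists, 1 per immunoprecipitation, and the 4 inputs were not analysed here. Tools named in the submitters' processing notes are MACS2 2.2.7.1, deepTools 3.3.2, Bowtie2 2.3.5.1 and SAMtools 1.10, with GRCm38 and mm10 as builds. How peaks were called, and against which control, is not given in the sources used here. Each list's peak names carry a single library. The deposited fold enrichment is the authors' ratio of summit to local background, each with 1 added. The deposited p and q values are −log10 values, and the deposited score is 10 times the −log10 q without its decimals. The last deposited column is the authors' summit position. These deposited values were ranked only inside a list. Across lists, Brg1 fragments after dTAG-13 were divided by the background ratio of 3.54 and set against the lowest values in DMSO.

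Solving fold and p as a Poisson test gave the fragments at each summit, whole within 0.02 for 100% of peaks. The EBF1 libraries were scaled by 0.818 after dTAG-13 and 0.863 in DMSO. These scales were chosen to bring the fragments nearest to whole numbers, so for EBF1 the 100% is no check of the recovery. Ranks follow −log10 p. Summits were placed on RefSeq gene bounds of GRCm38.p6, and overlap meant at least 1 bp. Fragment recovery was tested on simulated peaks, gene assignment at random positions and the overlap rules on a few made intervals. The simulated peaks held fewer fragments than the highest Brg1 summits. Scaling to the DMSO background and the motif search were not tested in this way. Alternatives changed the threshold, the distance limit, the assignment and the overlap rule. All 10 members are named with every peak, and other pathway genes where EBF1, or Brg1 in DMSO, was found. The members and lists were chosen with earlier results of these data known. Intervals cover counting error only. Python 3.11.15 with scipy 1.17.1 was used.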

Additional observations from a re-analysis of the deposited data

How the results depend on the processing

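The EBF1 counts at the 10 genes, 0 after dTAG-13 and 1 in DMSO, and the absence of Brg1 and of EBF1 after dTAG-13 at the Sh2b3 site held under every alternative tried. A count of 0 can only stay at 0 under the stricter alternatives. The Brg1 counts after dTAG-13, 9 genes and 22 peaks, depended on the threshold. They were 4 genes and 8 peaks when the −log10 q had to reach 5, against 1 gene and 2 peaks when it had to reach 10. Of the whole list, 42.5% of peaks reached 5 and 7.89% reached 10. A fold enrichment of 5 or more left 4 genes and 8 peaks. With the list shortened to the DMSO length they were 1 and 1, and after scaling to the DMSO background, an alternative chosen after the data had been seen, also 1 and 1. When a summit could count for every gene within 100 kb, there were 10 genes, Stat5a included, and 37 peaks. Within 20 kb there were 7 genes and 20 peaks. The share of all protein-coding genes was worked out only under the main rule. The gene counts under these alternatives therefore have no background beside them, and a wider rule can raise the share of all genes too. In DMSO, Flt3 was lost when the −log10 q had to reach 10, which left 0 genes and 0 peaks. The overlap of the Flt3 peaks fell to 0, counted from either list, under a reciprocal overlap of 50% and with a −log10 q of at least 5 in both lists, and it remained for summits within 250 bp and edges within 500 bp. Of 72 alternative values, 55 stayed within 1.5 times the reported count. The counts of 0 that stricter alternatives could not change are among them. No paired analysis was possible because each group has 1 library.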
